A study of Mus musculus with 6 samples.

Results

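Transcripts of the eukaryotic translation initiation factors were followed in mouse liver after a week of a fruit extract. Members were all genes of the deposited table whose symbol begins with Eif and a digit from 1 to 6, without the Y-linked Eif2s3y. There were 54 of them among 22899 rows. They comprised 47 factors, 4 Eif2ak kinases and 3 Eif4ebp inhibitors. Livers came from ICR mice, an outbred stock, in 2 groups of 3 libraries, numbered 1 to 3 within the water group and the extract group. Extract mice were dosed by gavage for 1 week with an ethyl acetate fraction prepared from a water-soluble extract of Chebulae Fructus, a medicinal fruit, at 1 g/kg/day. Water mice had 10 ml/kg of water by the same route and for the same time. All mice were specific pathogen-free, and no engineered allele or second agent is stated for either group. Age and sex are not given, nor is it stated that every library came from its own animal, so the tests compare libraries and their spread may be partly technical.

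Initiation factors bring the small ribosomal subunit, the initiator tRNA and an mRNA together at a start codon. The complex eIF2 carries the initiator tRNA and is recharged with GTP by eIF2B, eIF3 is the large scaffold on the small subunit, and eIF4E, eIF4G and eIF4A bind the cap and unwind the leader. Cells restrain the process in a pair of ways: Eif2ak kinases phosphorylate the alpha subunit of eIF2 under stress, and Eif4ebp proteins hold eIF4E away from eIF4G until the kinase mTOR phosphorylates them. Both controls act mainly on proteins, which transcript levels do not measure.

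Levels are FPKM, fragments scaled by transcript length and library size, so genes can be compared per length. The FPKM of a library summed to between 517984 and 583245, read totals were not given, and the counting error of a value is unknown. Fold changes are differences of log2(FPKM + 1), extract minus water, and n = 3 per group throughout. Across the series, limma called 5 of 10282 genes tested at a Benjamini-Hochberg adjusted p below 0.05 (0.0486%), and 10.3% had an unadjusted p below 0.05. Water 1 stood apart on the second principal component (29.6, against -11.9 to -2.74), and extract 3 lay nearest to water on the first (2.06, with extract 1 at 14.2, extract 2 at 26.8 and water from -23.1 to -3.81). Of 10 hepatocyte markers, 9 had values, all above 0 in every library, and their summed level was 81570 to 86991 FPKM in water and 65218 to 77356 FPKM in extract, most of it Alb. Fold changes were positive for 4 of these markers and negative for 5. The list's mean log2(FPKM + 1) was 10.7 to 10.8 in water and 10.7 to 10.9 in extract. Summed erythroid markers were 1218 to 3439 FPKM in water and 831 to 1017 FPKM in extract, and those of sinusoidal endothelium were 164 to 199.8 FPKM and 144 to 172 FPKM. Of 7 erythroid markers tested, 6 had negative fold changes and Alas2 a positive one (0.87). All 12 sinusoidal endothelium markers had negative fold changes, with a median log2 of -0.17, and 0 were called.

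The machinery as a whole differed little between the groups. Of 54 members, 52 passed the filter of 1 FPKM or more in 3 or more libraries, and 0 were called by limma (adjusted p from 0.279 to 0.999). Without correction 1 member, the kinase gene Eif2ak2, had p below 0.05, which is 1.92% of members against 10.3% of all genes tested. Fold changes were positive for 40 members (76.9%), with a median of 0.08 on the log2 scale, where 57.5% of all genes tested were positive with a median of 0.03. With every library centred at its median, 34 members were positive and the median was 0.04. In that setting 4865 of 10282 genes tested were positive, with a median of -0.01. The 95% interval of the fold change lay within 1 log2 unit on either side of 0 for 50 of the 52, the exceptions being Eif2ak2 and Eif3j1, and within 0.5 for 40. Of all 10282 genes tested, 9559 had intervals within 1 unit and 5935 within 0.5. Groups did not overlap for 6 members (11.5%, against 15.9% of all genes tested): 4 were higher in every extract library (background 10.0%) and 2 lower (background 5.88%). Members together made up 0.413% to 0.419% of the FPKM sum in water and 0.396% to 0.427% in extract. Eif4e1b and Eif5a2, homologs of Eif4e and Eif5a, were at or below 0.14 FPKM in every library and were not tested.

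**Figure D1:**
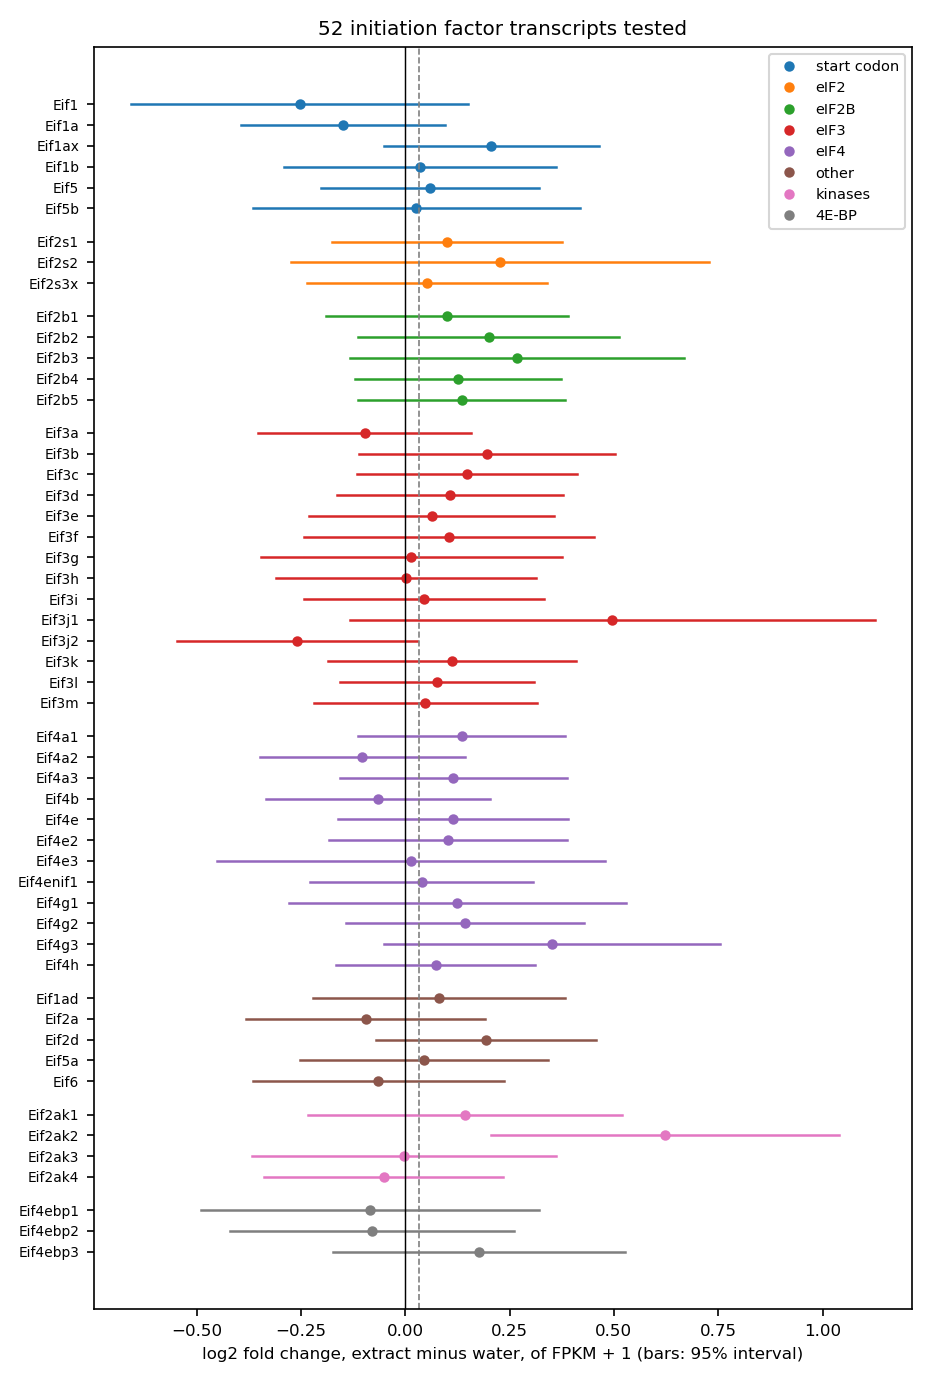
Log2 fold change (extract minus water, of FPKM + 1) of the 52 members tested, one row per gene, coloured by complex or role; points are limma estimates and bars their 95% intervals. The solid line marks 0 and the dashed line the median of all genes tested (0.03); the interval of Eif2ak2 alone lies wholly on one side of 0.

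None of the 4 genes for kinases that phosphorylate eIF2 was called, and differences between them were not tested. Eif2ak2 encodes PKR, which is activated by double-stranded RNA and is known as an interferon-induced gene. Its level was 3.04, 2.82 and 3.95 FPKM in water and 6.26, 6.50 and 4.12 FPKM in extract. Every extract library lay above every water library, but extract 3 was close to water 3, and extract 1 and 2 carried most of the difference. The means were 3.27 ± 0.60 and 5.63 ± 1.31 FPKM (SD), 1.72-fold apart, with a log2 fold change of 0.62, a standard error of 0.18 and a 95% interval of 0.21 to 1.04 (limma adjusted p = 0.279). The fold change lay at the 97.5th percentile of all genes tested. Without extract 3 it was 0.80 (limma adjusted p = 0.1), and leaving out any other library gave 0.52 to 0.73. Its mean of 4.45 FPKM put it outside the test when a mean of 5 FPKM was required.

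The other kinases had overlapping groups and intervals that held 0. Eif2ak1, which encodes the haem-regulated kinase HRI, had the highest level of the 4, with 13.1, 19.6 and 17.8 FPKM in water and 17.2, 17.6 and 20.5 FPKM in extract (log2 fold change 0.14, interval -0.23 to 0.52). Water 1 was the lowest library. Eif2ak3, encoding PERK, the kinase of endoplasmic reticulum stress, had 2.29, 3.00 and 3.85 FPKM in water and 3.10, 2.70 and 3.18 FPKM in extract (log2 fold change -0.0031, interval -0.37 to 0.36). The extract values lay inside the water range. Eif2ak4, encoding GCN2, which senses uncharged tRNA, had 1.38, 1.92 and 1.91 FPKM in water and 1.63, 1.53 and 1.73 FPKM in extract (log2 fold change -0.05, interval -0.34 to 0.24). Here too every extract library fell within the water range. The direction for Eif2ak1 turned negative under some alternatives and that for Eif2ak3 turned positive under others.

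**Figure D2:**
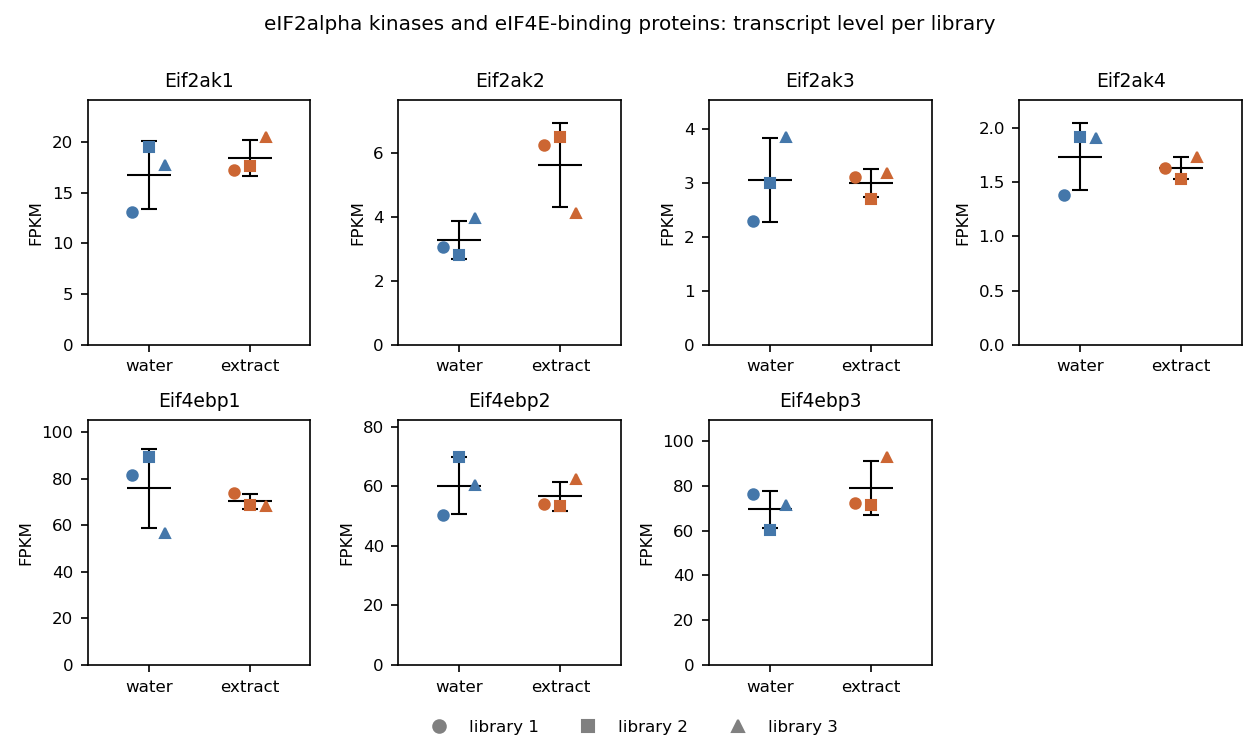
FPKM of the 4 Eif2ak kinase and 3 Eif4ebp inhibitor genes in each library; symbols are libraries 1 to 3 of each group, and the horizontal mark with bars is the mean ± SD of 3. Only for Eif2ak2 do the extract points (4.12 to 6.50 FPKM) all lie above the water points (2.82 to 3.95 FPKM).

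Eif2ak2 was set beside other interferon-response genes, from a list that did not hold it. Of 23 list members tested, all 23 had positive fold changes, with a median log2 of 1.07; 16 had p below 0.05 by limma (higher: 6.50% of all genes tested) and 0 were called, with adjusted p from 0.0882 upward. The list's mean log2(FPKM + 1) was 1.92, 2.02 and 2.13 in water and 3.28, 3.61 and 2.21 in extract. Extract 2, extract 1, extract 3 and water 3 were the 4 highest libraries for both the list and Eif2ak2, in that order. Water 1 and water 2 came in opposite orders: water 2 was higher for the list, and water 1 for Eif2ak2 (3.04 against 2.82 FPKM). A link between the list and the Eif2ak2 difference was not tested. The list's smallest p belonged to Ddx58, which senses viral RNA, with 3.39, 4.00 and 4.67 FPKM in water and 8.98, 10.3 and 7.44 FPKM in extract (limma adjusted p = 0.0882). Xaf1 had 2.98, 2.51 and 2.24 against 8.87, 10.3 and 4.07 FPKM, so extract 3 was again the lowest extract library.

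Markers of Kupffer cells, the liver's resident macrophages, had mostly positive fold changes, and 0 of 14 were called by limma (smallest adjusted p = 0.0882). Of the 14, 13 were positive, with a median log2 of 0.56, and 9 were higher at an unadjusted p below 0.05, against 6.50% of all genes tested. Groups overlapped for 7 of them, and for 7 (50%) every extract library lay above water, against 10.0% of all genes tested. None of the 14 was at 0 in any library. Their summed level ranged from 151 to 177 FPKM in water and from 233 to 350 FPKM in extract. The mean log2(FPKM + 1) of the list was 3.52, 3.96 and 3.73 in extract, so extract 3 was the second highest there, unlike for Eif2ak2. Their part in the Eif2ak2 difference was not tested. In bulk liver, more cells of a type and more RNA per cell cannot be told apart. Lymphocyte markers were low in both groups (7 of 9 with values, none of them tested; summed 1.82 to 2.97 FPKM in water and 2.27 to 2.90 FPKM in extract).

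**Figure D3:**
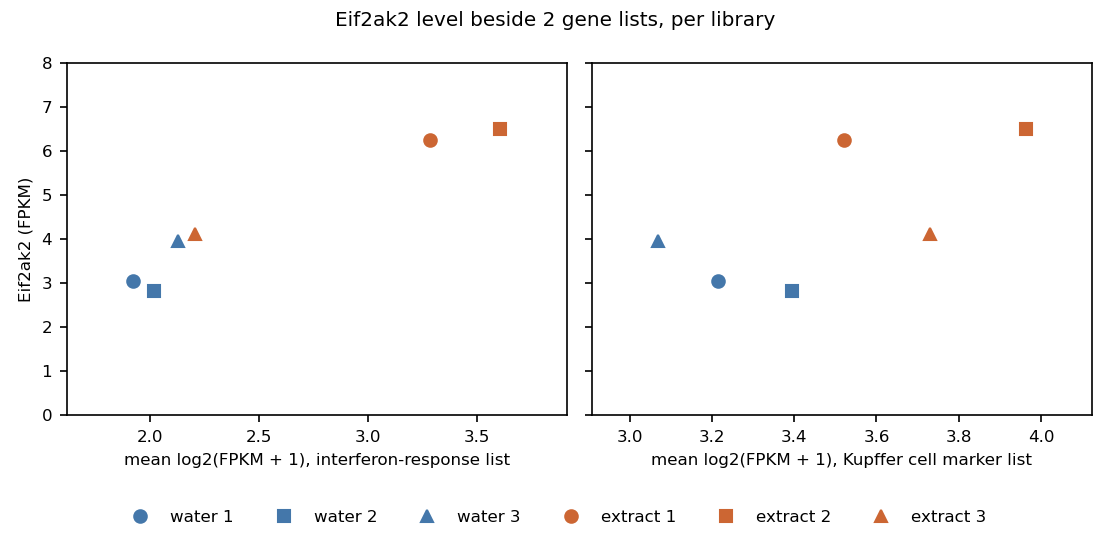
Eif2ak2 level (FPKM, vertical) against the mean log2(FPKM + 1) of the interferon-response list (left) and of the Kupffer cell marker list (right); each point is a library. Extract 1 and 2 stand apart at upper right on the left panel, while extract 3 lies beside water 3 (4.12 and 3.95 FPKM).

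The promoter of Eif2ak2 is shown because its transcript had the smallest p of the family. The gene lies on chromosome 17 of GRCm38, from 78850504 to 78882572, on the minus strand. The RefSeq window of GRCm38.p6, chr17:78882523-78882822, runs from 250 bases before the annotated start to 50 bases after it and reads, on the gene's strand with the match in capitals:
Eif2ak2: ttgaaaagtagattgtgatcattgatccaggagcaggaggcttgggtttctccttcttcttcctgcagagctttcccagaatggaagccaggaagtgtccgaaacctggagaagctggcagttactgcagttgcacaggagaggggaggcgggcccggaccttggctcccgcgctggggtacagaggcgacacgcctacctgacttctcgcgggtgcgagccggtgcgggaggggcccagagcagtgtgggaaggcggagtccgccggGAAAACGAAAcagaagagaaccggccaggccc
The capitals match GAAANNGAAA, the core letters of the interferon-stimulated response element, the site that interferon-activated transcription factors bind. The first matched base is base 19 of the transcript, counting the annotated start as 1.

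RefSeq promoters were matched for 42 of the 54 members. Searched on both strands, GAAANNGAAA, or TTTCNNTTTC on the gene's strand, occurred in 4 of these 42, in 9 of 20 genes of the interferon list with a promoter, and in 3.99% of 27025 genes. A match is a description of the letters and not evidence of binding. The members with a match are shown with that of Oas3, an interferon-induced synthetase gene, for comparison. Windows are on the gene's strand, with the match in capitals:
Eif2ak2, chr17:78882535-78882564: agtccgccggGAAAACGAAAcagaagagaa
Oas3, chr5:120777715-120777744: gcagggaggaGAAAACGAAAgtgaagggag
Eif2s1, chr12:78861850-78861879: cctggagcaaGAAACAGAAActtacctctc
Eif3a, chr19:60790885-60790914: agaccgcaaaTTTCCCTTTCccactctgtg
Eif2s3x, chrX:94212636-94212665: tgccgagcatTTTCCTTTTCtctccgagca
Eif2ak2 and Oas3 share the same 10 capital letters. The other members with a match, Eif2s1, Eif3a and Eif2s3x, had log2 fold changes of 0.10, -0.10 and 0.05, each with an interval that held 0. The letters TGATGNAA (TTNCATCA on the other strand) are part of the element bound by the stress factor ATF4. They were found in 1 of the 42, Eif2s3x, where they did not overlap the other match. Among genes with a promoter, they occurred in 2.64% of genes tested and in 4.51% of all genes. In a list of integrated stress response genes they occurred in 8 of 21.

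The substrate of the kinases and its exchange factor had slightly positive fold changes without a call. Eif2s1 encodes the alpha subunit of eIF2 that the kinases phosphorylate, and had 9.51, 7.65 and 9.01 FPKM in water and 9.70, 9.77 and 8.72 FPKM in extract (log2 fold change 0.10, interval -0.18 to 0.38). The groups overlapped. The beta subunit gene Eif2s2 spread widely within water, with 28.4, 15.0 and 19.9 FPKM, and had 25.3, 25.8 and 21.3 FPKM in extract, so that all extract values fell inside the water range. The gamma subunit gene Eif2s3x had 19.6 to 25.3 FPKM in water and 22.5 to 24.3 FPKM in extract. Per length, the mean level of Eif2s1 was the lowest of the 3, and that of Eif2s3x was 2.53 times as high.

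All 5 subunit genes of eIF2B had positive fold changes, with a median log2 of 0.14 and a range from 0.10 to 0.27. They stayed positive after centring on the median gene, where their median was 0.09, and after quantile normalization. No member had limma p below 0.05 (adjusted p 0.665 to 0.869). Eif2b5, the catalytic epsilon subunit, had 11.0, 9.64 and 10.5 FPKM in water and 11.3, 10.9 and 12.2 FPKM in extract, with a small overlap at water 1 (log2 fold change 0.14, interval -0.11 to 0.38). Eif2b4, the delta subunit, did not overlap, at 13.2, 11.2 and 12.5 FPKM against 13.7, 13.3 and 13.5 FPKM. The gap between water 1 and extract 2 was small. Eif2b3 had the largest fold change of the 5, carried by extract 3 at 6.50 FPKM against 3.70 and 4.86 FPKM in the other extract libraries and 3.69 to 4.04 FPKM in water. The Eif2s1 to Eif2b5 level ratio was 0.84 ± 0.04 in water and 0.82 ± 0.09 in extract (SD; two-sided exact permutation p = 0.8, where 0.1 is the smallest p that 3 against 3 libraries allow).

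Among the factors of start codon choice, the closely related eIF1A genes went in opposite directions. Eif1a had 16.2, 16.4 and 16.4 FPKM in water and 13.7, 15.9 and 14.5 FPKM in extract. Every extract library was below every water library, yet the fold change of -0.15 had an interval of -0.39 to 0.10 (limma adjusted p = 0.714). Eif1ax, its X-linked relative, had 16.8, 17.9 and 15.9 FPKM in water and 18.7, 21.4 and 18.7 FPKM in extract. Here every extract library was above water, with a log2 fold change of 0.21 and an interval of -0.05 to 0.46 (limma adjusted p = 0.588). Their sum was 33.2 ± 0.96 FPKM in water and 34.3 ± 2.65 FPKM in extract (SD). The Eif1a to Eif1ax ratio, chosen after its values were seen and so not tested, was 0.96, 0.92 and 1.03 in water and 0.73, 0.74 and 0.77 in extract. The transcripts of the pair shared 0% of their 31-base stretches in GENCODE M21.

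Eif1, whose product monitors the start codon, had the highest mean level of all 54 members. Its level was 433, 300 and 293 FPKM in water and 298, 263 and 286 FPKM in extract. Water 1 was far above the other 5 libraries, and the log2 fold change of -0.25 (interval -0.66 to 0.15) was -0.07 without it. Eif5, the GTPase-activating partner of eIF2, had 64.0, 57.0 and 64.9 FPKM in water and 64.1, 68.5 and 61.2 FPKM in extract, with overlapping groups. Eif1b and the subunit-joining factor gene Eif5b were lower, with means of 12.2 and 9.12 FPKM over all libraries and overlapping groups.

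The 14 subunit genes of eIF3 spanned a wide range of levels with small differences between groups. Their mean level over 6 libraries ran from 10.2 FPKM for Eif3j1 to 97.3 FPKM for Eif3h, a 9.51-fold range. Fold changes were positive for 12 and negative for Eif3a and Eif3j2, with a median log2 of 0.07. The median was 0.03 after median centring, when 10 were positive, and 0.15 without water 1. No eIF3 gene had separate groups. Eif3a, the largest scaffold subunit, had 24.7, 26.3 and 28.7 FPKM in water and 26.2, 24.3 and 23.7 FPKM in extract (log2 fold change -0.10, interval -0.35 to 0.16). Eif3c, its core partner, had 30.6, 36.3 and 34.0 FPKM in water and 39.4, 35.4 and 37.1 FPKM in extract (log2 fold change 0.15, interval -0.12 to 0.41). For both genes the groups overlapped. Eif3l was the steadiest member, with a coefficient of variation of 3.82% over 6 libraries, against a median of 9.87% for members tested and 15.4% for all genes tested, which were also expressed at lower levels.

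Water 1 set much of the spread in this complex. It was the highest water library for 12 of the 14 eIF3 genes, all but Eif3a and Eif3c, where it was the highest water library for 39.2% of all genes tested. Eif3f had 77.3, 57.8 and 54.9 FPKM in water and 65.1, 66.1 and 70.9 FPKM in extract, and Eif3g had 54.7, 38.9 and 39.7 against 42.6, 42.2 and 48.4 FPKM. In both, the extract values sat between water 1 and the other water libraries. Without water 1, 5 members (9.62%, against 9.45% of all genes tested in that setting) were higher with limma p below 0.05: Eif3j1, Eif3b, Eif2s2, Eif3f and Eif2ak2, with adjusted p from 0.181 to 0.273. Extract then lay wholly above water for 22 members (42.3%), where it did so for 20.4% of all genes tested without that library. Smaller groups separate more often for every gene. Water 1 was also the highest water library for 57.7% of members tested, against 39.2% of all genes tested. Leaving it out therefore favours separation above water for members, and their higher share adds no support for a difference. Water 1 was opposite for Eif4g1, at 51.0 FPKM against 79.8 and 73.1 FPKM in the other water libraries.

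**Figure D4:**
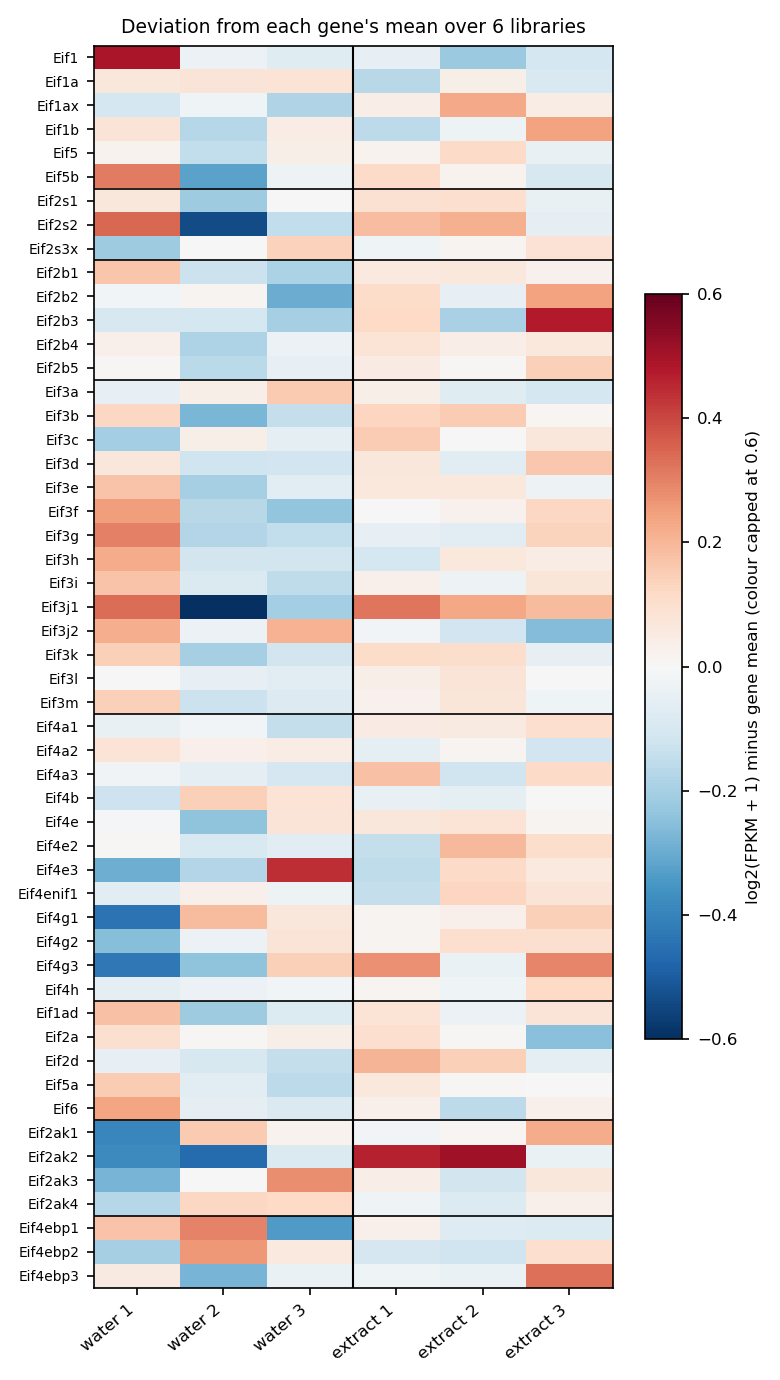
Deviation of each tested member's log2(FPKM + 1) from its own mean over 6 libraries; columns are libraries, rows are genes grouped by complex, and the colour scale is capped at 0.6. Water 1 is red along most of the eIF3 block and blue for Eif4g1 and Eif4g3, and the red Eif2ak2 cells fall in extract 1 and 2.

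Eif3j1 and Eif3j2 encode the loosely bound j subunit and share sequence, so reads may be divided between them with error. In GENCODE M21, 93.9% of the 31-base stretches of Eif3j2 transcripts also occur in those of Eif3j1, and 41% of those of Eif3j1 occur in Eif3j2. Eif3j1 had 12.6, 4.89 and 8.37 FPKM in water and 12.5, 11.7 and 11.3 FPKM in extract. Eif3j2 had 15.2, 12.6 and 15.1 FPKM in water and 12.8, 11.9 and 10.6 FPKM in extract. The log2 fold changes of 0.50 and -0.26 had opposite signs, and each interval held 0 (limma adjusted p = 0.595 and 0.528). The sum of the pair was 27.8, 17.5 and 23.5 FPKM in water and 25.3, 23.6 and 21.97 FPKM in extract, with extract inside the water range.

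The RNA helicase paralogs of the cap complex also differed in direction. Eif4a1, on chromosome 11 from 69666936 to 69672423 of GRCm38, had 125, 128 and 117 FPKM in water and 133, 134 and 138 FPKM in extract. All extract libraries were higher, with a log2 fold change of 0.13 and an interval of -0.11 to 0.38 (limma adjusted p = 0.767). Eif4a2, on chromosome 16 from 23107468 to 23114132, had 115, 111 and 112 FPKM in water and 105, 110 and 100 FPKM in extract. All extract libraries were lower, with a log2 fold change of -0.10 and an interval of -0.35 to 0.14 (limma adjusted p = 0.831). The sum of the pair was 236 ± 6.11 and 240 ± 3.20 FPKM (SD).

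Their ratio does not depend on library scaling. Eif4a2 to Eif4a1 was 0.92, 0.87 and 0.96 in water and 0.78, 0.82 and 0.73 in extract. The groups did not overlap, the difference was -0.14, and the two-sided exact permutation p was 0.1, the smallest possible here. Leaving out each library gave differences from -0.16 to -0.11. Because Eif4a1 was higher and Eif4a2 lower in every extract library, the ratio had to separate. Its p and the constant sign therefore add no support beyond the values of the 2 genes. The transcripts of the pair shared 0% of 31-base stretches. Eif4a3, whose product belongs to the exon junction complex rather than the cap complex, had a mean of 20.9 ± 0.58 FPKM in water and 22.8 ± 2.49 FPKM in extract.

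**Figure D5:**
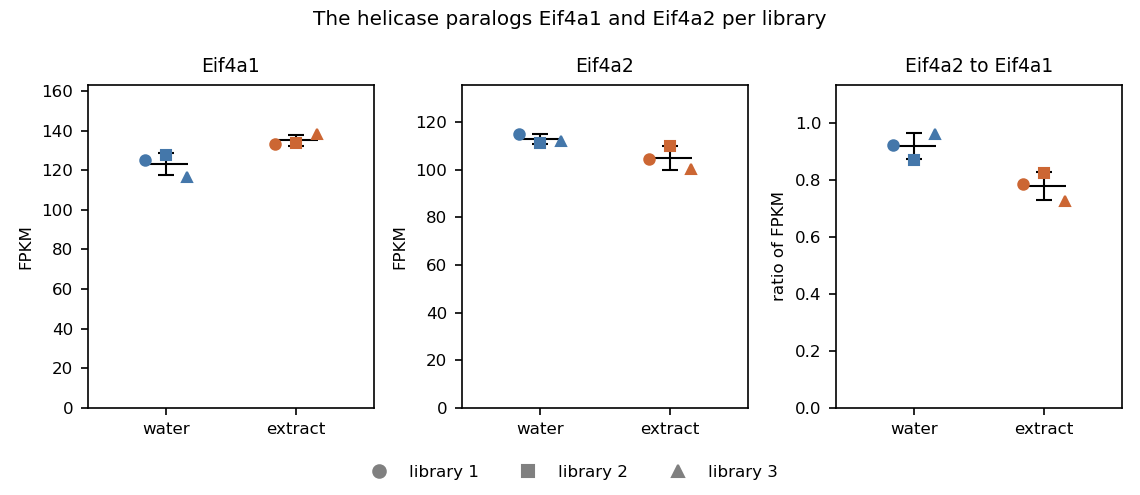
FPKM of Eif4a1 and Eif4a2 and the ratio of their FPKM in each library; symbols are libraries 1 to 3 and the horizontal mark with bars is the mean ± SD of 3. The ratio is 0.87 to 0.96 in water and 0.73 to 0.82 in extract.

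The cap-binding protein and its scaffolds overlapped between groups. Eif4e had 18.1, 15.3 and 19.3 FPKM in water and 19.1, 19.3 and 18.4 FPKM in extract (log2 fold change 0.11, interval -0.16 to 0.39). Eif4g1, the main scaffold, had 51.0, 79.8 and 73.1 FPKM in water and 70.6, 71.3 and 77.1 FPKM in extract, and its fold change of 0.13 turned negative in 3 of 15 alternatives. Eif4g2, a relative that lacks the eIF4E site, had 47.8, 55.8 and 60.5 FPKM in water and 57.9, 61.6 and 61.3 FPKM in extract. Eif4g3 had the largest fold change of the eIF4 genes, 0.35 with an interval of -0.05 to 0.75, and its groups overlapped at water 3 (13.1 FPKM) and extract 2 (11.5 FPKM). Eif4b and Eif4h, both helicase cofactors, had means of 70.1 and 41.9 FPKM in water and 66.7 and 44.2 FPKM in extract. The cap-binding relatives Eif4e2 and Eif4e3 and the eIF4E transporter gene Eif4enif1 had log2 fold changes between 0.01 and 0.10.

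The Eif4ebp inhibitor genes were abundant relative to Eif4e. Eif4ebp1 had 81.5, 89.4 and 57.0 FPKM in water and 73.9, 68.7 and 68.4 FPKM in extract (log2 fold change -0.09, interval -0.49 to 0.32). The extract libraries sat close together inside the wide water range. Eif4ebp2 had 50.4, 69.7 and 60.4 FPKM in water and 54.0, 53.3 and 62.3 FPKM in extract (log2 fold change -0.08, interval -0.42 to 0.26). Eif4ebp3 had 76.6, 60.5 and 71.5 FPKM in water and 72.4, 71.6 and 92.9 FPKM in extract, with extract 3 the highest (log2 fold change 0.18, interval -0.17 to 0.53). The mean levels of the 3 genes lay within 1.27-fold of each other. The Eif4ebp1 to Eif4e ratio was 4.44 ± 1.45 in water and 3.71 ± 0.16 in extract (SD; two-sided exact permutation p = 0.5), and the Eif4ebp2 to Eif4e ratio was 3.50 ± 0.95 and 2.99 ± 0.34 (exact permutation p = 0.6). Both ratios overlapped between groups.

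The remaining members have roles beside or after initiation. Eif5a, known mainly for helping ribosomes elongate through difficult peptide stretches, was the second most abundant member, with 319, 274 and 257 FPKM in water and 299, 288 and 286 FPKM in extract (log2 fold change 0.05, interval -0.25 to 0.34). Eif6, which keeps large ribosomal subunits from joining early, had 29.4, 23.7 and 23.3 FPKM in water and 25.3, 22.1 and 25.3 FPKM in extract (log2 fold change -0.06, interval -0.37 to 0.24). Groups overlapped for both. Eif2d, a tRNA delivery and ribosome recycling factor, had 16.1, 15.6 and 15.1 FPKM in water and 19.5, 18.6 and 16.1 FPKM in extract, where extract 3 fell just below water 1. Eif2a and Eif1ad had overlapping groups.

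Other genes of the translation pathway gave no call either. Of 21 accessory proteins of initiation tested, 9 had positive and 12 negative fold changes, with a median of -0.01, and 1 (4.76%, against 10.3% of all genes tested), the helicase gene Dhx29, had limma p below 0.05 (1.33, 1.56 and 1.48 against 1.69, 2.10 and 2.10 FPKM; adjusted p = 0.479). Pabpc1, the poly(A)-binding protein that contacts eIF4G, had 134, 130 and 142 FPKM in water and 136, 149 and 132 FPKM in extract. Of 10 elongation and release factors 8 were positive, with a median of 0.14. Eef2k, the kinase that inhibits elongation factor eEF2, had 1.4, 2.56 and 2.33 FPKM against 3.46, 2.56 and 4.13 FPKM (limma adjusted p = 0.425), with water 2 and extract 2 tied. The abundant elongation factor genes Eef1a1 and Eef2 had log2 fold changes of 0.12 and 0.03. The mitochondrial initiation factor genes Mtif2 and Mtif3 had 0.22 and -0.13.

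A list of 18 genes held those of the mTORC1 pathway, which phosphorylates Eif4ebp proteins, and the eIF4E kinase genes Mknk1 and Mknk2. Of these, 15 were tested, 6 positive and 9 negative, with a median of -0.02. Mknk2, a kinase that phosphorylates eIF4E, had 93.3, 98.1 and 90.0 FPKM in water and 65.4, 76.4 and 76.1 FPKM in extract. All extract libraries were below water, with a log2 fold change of -0.37 and a standard error of 0.12 (limma adjusted p = 0.323). It was the only gene of that list with p below 0.05 (6.67% of those tested, against 10.3% of all genes tested, 3.82% for lower). Mtor itself had 5.58, 9.32 and 8.69 FPKM in water and 7.63, 6.88 and 7.50 FPKM in extract.

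Genes known to respond to eIF2 phosphorylation had fold changes of both signs, and none was called. Of 24 genes of the integrated stress response, 17 were tested, 10 positive and 7 negative, with a median of 0.01, and 3 (17.6%, against 10.3% of all genes tested) had limma p below 0.05. Cars, a cysteinyl-tRNA synthetase gene, was higher in extract (5.87, 6.15 and 7.14 against 13.0, 10.3 and 7.56 FPKM; adjusted p = 0.323). The cytokine gene Gdf15 was lower (4.16, 3.08 and 2.68 against 1.66, 1.27 and 0.76 FPKM; adjusted p = 0.16), as was the lipoprotein receptor gene Vldlr (4.43, 6.39 and 4.00 against 3.39, 1.89 and 3.55 FPKM; adjusted p = 0.391). Chac1 had the next smallest p, with overlapping groups. Its log2 fold change was 0.93, with an interval of -0.04 to 1.9 (limma adjusted p = 0.505). Of the genes that failed the filter, mean levels were higher in extract for Asns, Atf3, Mthfd2, Phgdh and Psat1. They were lower for Nupr1 and equal for Slc7a11, and groups overlapped for all. Asns had 0.27, 0.2 and 0.15 FPKM in water and 1.78, 2.48 and 0.2 FPKM in extract, with extract 3 inside the water range. Atf4, whose protein is made preferentially when eIF2 is phosphorylated, had 58.3, 38.0 and 39.6 FPKM in water and 52.2, 54.6 and 54.6 FPKM in extract, with water 1 above all extract libraries. Ddit3, a death-associated target of ATF4, had 13.0, 4.51 and 5.27 FPKM against 5.59, 6.59 and 5.29 FPKM. Water 1 was again the highest library.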

How the data were processed

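Poly(A)-selected liver RNA was sequenced, per the labels' protocols. The tools were RSEM 1.2.12, HISAT2 2.0.4, DESeq2 1.4.5 and Bowtie2 2.2.5 and the build GRCm38, per the submitters' processing notes; their roles are not given in the sources used here. The deposited values carry no unit in the header. They were read here as the authors' FPKM: they are not whole, have 2 decimals, and their sums differ between libraries, which TPM sums would not. Multiplied by transcript length in kilobases (longest GENCODE M21 transcript), their sums were 118% to 121% of the FPKM scaling total. Low values differed between libraries most often by a ratio of 1, so read depth was not recovered. Of 22899 rows, 5161 were blank and 11 symbols turned into dates were restored by gene ID.

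log2(FPKM + 1) was fitted with limma 3.58.1 in R 4.3.3 with a trend in the prior variance. The 10282 genes tested had 1 FPKM or more in 3 or more libraries, and p-values were adjusted over all of them. The fold changes understate those of low genes. Ratios were compared by a two-sided exact permutation test over 20 assignments. Values in every library are given for members at unadjusted p below 0.05 and for the kinases, the inhibitors, Eif4e, Eif4g1, Eif4g2, Eif4a1, Eif4a2, Eif2s1, Eif2b5, Eif3a, Eif3c, Eif1, Eif5, Eif5a and Eif6, whatever their result. From other lists, the rule allowed up to 4 genes of smallest p, with Atf4, Ddit3, Mtor, Eef1a1, Eef2 and Pabpc1. Other members shown per library, and Asns, were chosen after their values were seen. Members and lists were chosen with earlier results of these data known. The alternatives were other scalings, filters, pseudocount, variance options, a block, library weights and left-out libraries. Group mean columns were not used. Coordinates and promoters are from RefSeq GRCm38.p6, and transcripts from GENCODE M21.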

Additional observations from a re-analysis of the deposited data

How the results depend on the processing

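In all 15 alternatives 0 members were called by limma, with a smallest adjusted p of 0.082 (Eif2ak2, with library weights), and the fold change of Eif2ak2 was positive in the 14 in which it was tested. The median fold change of all members stayed positive, from 0.04 to 0.13. Genes called over the whole table, 5 with all libraries, were 0 after median centring, with no filter on low values or with the replicate block, 2 after quantile normalization or with a pseudocount of 0.1, 133 with library weights, and 0 to 48 when a library was left out. Genes at unadjusted p below 0.05 were 690 when genes with a mean under 5 FPKM were dropped, 1926 with library weights and 729 to 1580 without a library. Members at unadjusted p below 0.05 and higher were 0 with the filter at 5 FPKM, 5 with library weights and 1 to 5 without a library (4.12% to 9.45% of all genes tested). The 5 with library weights stood beside 1926 of 10282 genes in either direction. Lower members were 1 (Eif3j2) after median centring or quantile normalization and 0 to 1 without a library (2.80% to 6.05% of all genes tested). Members without overlap numbered 5 to 22 above (12.9% to 20.4% of all genes tested) and 2 to 6 below (8.29% to 13.5%) without a library. The 22 were found without water 1, the highest water library for most members. Leaving out water 1 and extract 3 together, chosen after seeing the data, gave 68 genes called, 1770 at unadjusted p below 0.05, 6 members higher (10.2% of all genes), and 24 above (27.1%) and 8 below (23.3%) without overlap. The ratio differences ranged from -1.48 to -0.0265 for Eif4ebp1 to Eif4e. They ranged from -0.868 to 0.0244 for Eif4ebp2 to Eif4e, positive without water 2, and from -0.053 to 0.0346 for Eif2s1 to Eif2b5, positive without extract 3. The cause was not tested. The replicate block changed no call of a member (1 at unadjusted p below 0.05 in both fits, Eif2ak2 adjusted p = 0.413), and same-numbered libraries did not deviate together (correlations over genes -0.02, -0.18 and 0.12), so the numbers were not used as pairs. Count-based tests were not run, since the table holds no counts. Unknown depth limits the lowest members, Eif2ak4, Eif4e3 and Eif2ak3.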
